A study of Rattus norvegicus with 6 samples.

Results

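Egr1, Egr2, Egr3, Egr4, Nab1 and Nab2 are the 4 early growth response (EGR) transcription factors and the 2 Nab proteins that bind them. They were found by symbol, and all 6 were among the 17327 genes counted in every library. Primary Schwann cells, the glial cells that ensheath and myelinate peripheral axons, were taken from sciatic nerves of adult Wistar rats and grown without axons. Confluent cells were starved for 18 h in medium with 2% FBS and 10 μM forskolin, which raises cAMP and was present in both groups, and were then stimulated for 6 h. The 3 NRG1 samples received 10 nM recombinant soluble NRG1β1 and the 3 mock samples the same volume of its buffer, PBS with bovine serum albumin. Each of the 3 independent cell preparations, called cultures 1, 2 and 3 here, gave 1 mock and 1 NRG1 sample. Before starvation all cultures had grown with a neuregulin, named as glial growth factor in the sample labels and as recombinant soluble NRG1β1 in the study's methods, so the mock cells were not naive to such ligands. Poly(A) RNA was sequenced, and the libraries held between 6821590 and 15475018 counts on genes.

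The EGR factors are zinc finger proteins that bind a GC-rich site, and most are immediate-early genes, switched on within minutes of growth factor signalling through ERK and serum response factor. Egr2, also called Krox20, is the factor without which Schwann cells do not form myelin, and it acts on the genes of myelin proteins and lipids. Nab1 and Nab2 have no DNA-binding domain of their own, attach to EGR factors and recruit the NuRD chromatin complex through Chd4. They limit activation by EGR factors, and with Egr2 they repress genes of the immature Schwann cell. Egr1 itself raises Nab2 in many cells, which forms a negative feedback.

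Promoter sequences are shown for Egr1 and Egr2, the 2 members whose levels fell, and for Nab1, the member with matches to the EGR site itself. Of the 6 members, 5 had a promoter window in RefSeq's table for the GRCr8 build, each with 250 bases before and 50 after the annotated start, and that of Egr3 was not in it. Capitals mark the CArG box (the core of the serum response element), the cAMP response element core ACGTCA, and the EGR site GCGNGGGCG, each searched on both strands. The windows lie on GRCr8, whereas the counts were made on rn5. The Egr1 window is chr18:26736828-26737127 on the plus strand, the Egr2 window chr20:21054392-21054691 on the minus strand and the Nab1 window chr9:56545392-56545691 on the plus strand.
Egr1: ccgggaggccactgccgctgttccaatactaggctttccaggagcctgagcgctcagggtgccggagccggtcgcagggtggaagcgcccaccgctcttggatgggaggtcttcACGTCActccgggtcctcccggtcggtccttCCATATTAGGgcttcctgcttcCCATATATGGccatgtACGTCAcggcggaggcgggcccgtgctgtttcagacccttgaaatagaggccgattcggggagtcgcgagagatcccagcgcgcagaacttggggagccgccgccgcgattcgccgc
Egr2: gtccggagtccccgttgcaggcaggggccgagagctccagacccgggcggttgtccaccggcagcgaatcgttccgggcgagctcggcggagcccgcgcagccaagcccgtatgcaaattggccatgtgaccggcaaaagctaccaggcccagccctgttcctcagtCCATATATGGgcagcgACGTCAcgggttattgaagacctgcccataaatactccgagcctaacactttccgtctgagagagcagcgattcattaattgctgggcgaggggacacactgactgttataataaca
Nab1: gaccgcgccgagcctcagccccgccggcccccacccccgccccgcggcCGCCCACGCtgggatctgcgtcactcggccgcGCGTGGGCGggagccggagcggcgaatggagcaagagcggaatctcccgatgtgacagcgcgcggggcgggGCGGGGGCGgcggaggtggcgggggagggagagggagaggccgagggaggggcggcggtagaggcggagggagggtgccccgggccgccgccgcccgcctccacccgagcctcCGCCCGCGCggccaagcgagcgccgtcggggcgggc

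In the Egr1 and Egr2 windows the same CArG box, CCATATATGG, began 83 bases upstream of the start, and a cAMP response element core began 67 bases upstream. Egr1 had a further CArG box, CCATATTAGG, 105 bases upstream, and a further ACGTCA 136 bases upstream. The Egr4 window held 2 ACGTCA cores, 179 and 111 bases upstream, and no CArG box. Nab1 had no match to either element but held the EGR site 4 times, 202, 170 and 99 bases upstream and 14 bases downstream of the start. In the Nab2 window none of these letters were found. Among 33469 promoter windows of this length, 1.64% held a CArG box, 7.94% the ACGTCA core and 4.98% the EGR site. These shares were not matched for base content. G and C made up 81.7% of the Nab1 window, 73.3% of Nab2, 68% of Egr4, 64.7% of Egr1 and 59% of Egr2, and the EGR site is itself rich in G and C.

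**Figure D1:**
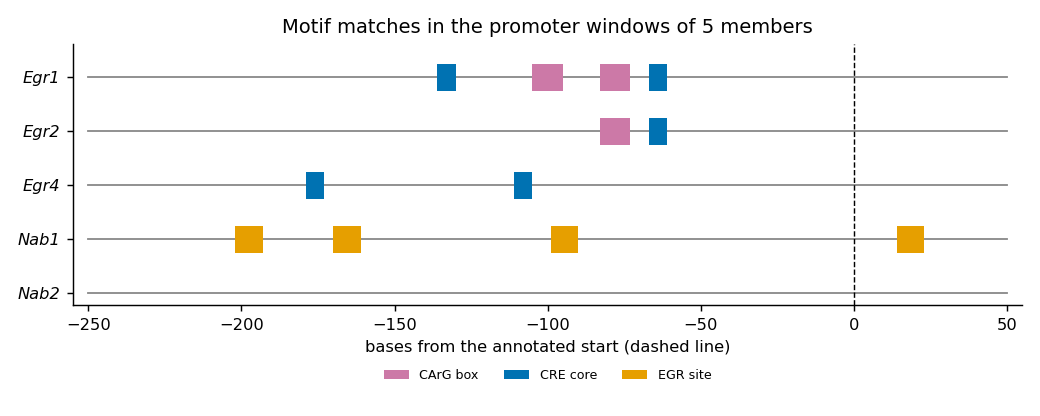
Positions of motif matches in the promoter windows of 5 members, with the distance from the annotated start in bases on the x axis and 1 line for each gene. Egr1 and Egr2 share a CArG box 83 bases and an ACGTCA core 67 bases upstream, the 4 EGR sites are in the Nab1 window, and the Nab2 window is empty.

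Before the members, the cultures themselves had to be compared, because culture 1 stood apart in both of its libraries. The Schwann markers S100b, Sox10, Erbb3, Ngfr, Pmp22 and Cdh19 were all detected, and their summed level was 4052.1 CPM (counts divided by library size) in mock culture 1 against 8672.1 and 8222.3 CPM in mock cultures 2 and 3. The fibroblast markers Dcn, Lum and Thy1 were at 611.2, 23.2 and 1268.4 CPM in mock culture 1 and at 0 in all 4 libraries of cultures 2 and 3, while Acta2, a smooth muscle actin of mural cells and myofibroblasts, was at 1812.8, 4.59 and 0.788 CPM in mock cultures 1, 2 and 3. Of the 6 fibroblast markers, Col1a1 was high in every library and Col1a2 at or near 0 in every library. Summed levels of the fibroblast list were 13621.0 to 31022.6 CPM in mock and 13414.3 to 34499.4 CPM in NRG1 samples, and those of the mural list 313.3 to 3044.1 and 223.2 to 3099.2 CPM. The fibroblast sum is mostly Col1a1, at 28249.7, 21494.4 and 13620.2 CPM in mock cultures 1, 2 and 3. It therefore hides the contrast in the other markers, such as Pdgfra at 870.1, 0.148 and 0.709 CPM. The 4 tested markers of these lists were Col1a1, Pdgfra, Pdgfrb and Acta2, and none was called changed by NRG1. Dcn, Lum and Thy1 did not pass the filter, so the fit says nothing about them. In culture 1 these 3 were at 427, 14.8 and 1143.3 CPM after NRG1, each below mock. Col1a1 and Acta2 were above mock there, at 32087.1 and 1844.5 CPM after NRG1. Ptprc and Cd163 of macrophages, Pecam1 and Cdh5 of endothelial cells and Rbfox3 of neurons were at 0. Of the 4 neuronal markers Nefl alone was high, at 1502.5 to 5757.5 CPM over the 6 libraries. The fits of the tested members and the calls of the gene lists are therefore given with and without culture 1. Fits without culture 1 rest on cultures 2 and 3 alone. Their p-values draw mainly on spread pooled over genes and cannot be compared with those of all 3 cultures. In bulk RNA, fewer cells of a type cannot be told apart from less RNA per cell.

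**Figure D2:**
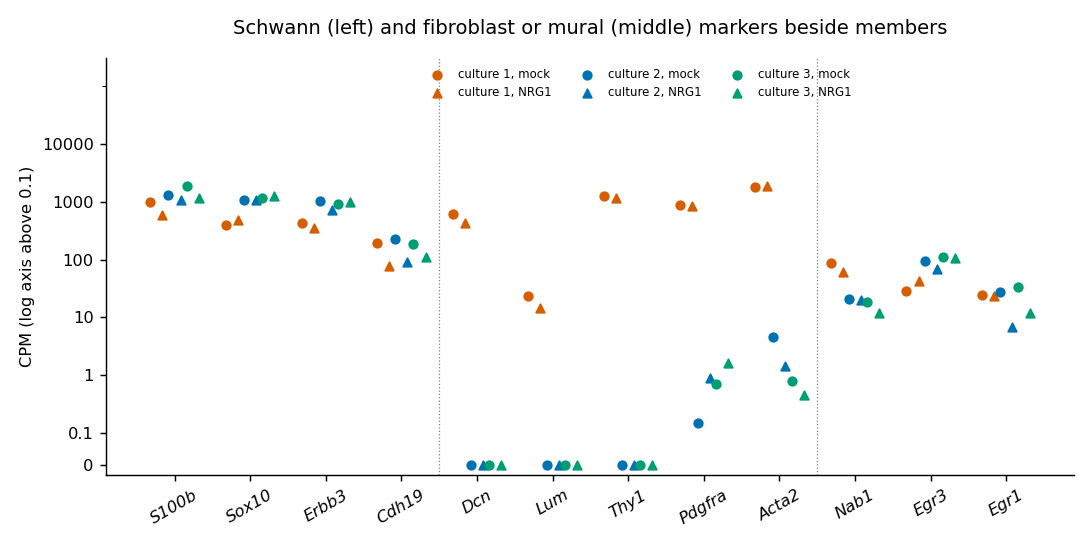
Level in CPM, on a log axis above 0.1, of Schwann markers (left), fibroblast or mural markers (middle) and 3 members (right) in each of the 6 libraries, with circles for mock and triangles for NRG1. Dcn, Lum and Thy1 are at 0 in cultures 2 and 3 and between 14.8 and 1268.4 CPM in culture 1, which also has the highest Nab1 and the lowest Egr3.

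NRG1 lowered 2 of the 5 members that could be tested, Egr2 and Egr1, and raised none. In edgeR's quasi-likelihood fit with the culture as a block, a gene was called changed at a Benjamini-Hochberg adjusted p of at most 0.01 over 9740 genes. By that rule 5.51% of all genes tested fell, 6.31% rose and 11.8% changed in either direction. In this fit both members also passed the study's further limit of a log2 fold change under -1, which 1.91% of all genes did. The study applied that limit to DESeq2 values. DESeq2 with the block put Egr2 at -1.67 without shrinkage and -1.34 with it. For Egr1 the values were -1.15 and -0.89, the second short of the limit. Of the 6 Schwann markers 3 fell as well (S100b, Pmp22 and Cdh19), and the summed level of the list after NRG1 was 3118.2, 6159.3 and 6708.9 CPM in cultures 1, 2 and 3, lower than mock in each. Pmp22, also a gene of the myelin list below, carried the largest part of that drop. In cultures 1, 2 and 3 it went from 997.2, 2538.9 and 1408.8 CPM to 322.8, 909 and 465.6 CPM. Sox10 and Ngfr were at log2 fold changes of 0.11 and 0.08. The part of the Schwann cell content in the members' changes was not tested. Without culture 1 the same 2 members fell, with 12% of all genes called. The median log2 fold change was -0.40 over the 5 tested members and -0.03 over all genes tested. Egr4 did not pass the filter on low counts.

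Egr2 was the member that fell most. Its counts were 84, 156 and 271 in mock cultures 1, 2 and 3 and 37, 70 and 70 after NRG1, or 11.2, 23.1 and 21.4 CPM against 4.93, 7.87 and 4.52 CPM. Every mock library was above every NRG1 library, and the mean went from 18.6 ± 6.41 CPM to 5.77 ± 1.83 CPM (SD, n = 3). The edgeR fit gave a log2 fold change of -1.71 (SE, the standard error, 0.21, 95% interval -2.17 to -1.25, adjusted p = 8.5e-05), so that 0.305 of the mock level was left. Within cultures 1, 2 and 3 the log2 ratio of counts was -1.19, -1.55 and -2.24, and the 95% counting intervals of cultures 1 (-1.79 to -0.61) and 3 (-2.64 to -1.86) did not overlap. The difference went the same way in all 3 cultures, including the one rich in fibroblast markers, and without culture 1 the log2 fold change was -1.90 (adjusted p = 1.5e-12 by edgeR). The SE of that fit was 0.24 against 0.21 with all cultures, so its smaller p-value is not stronger evidence. Among all genes tested, Egr2 ranked 133rd by p-value. By mean log2 CPM, a scale that does not correct for gene length, 20.9% of tested genes were at or below Egr2.

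Egr1, the prototype immediate-early member, was also lower after NRG1, though by less than counting error in culture 1. It was counted at 24.2, 27.5 and 33.3 CPM in mock cultures 1, 2 and 3 and at 23.7, 6.86 and 11.9 CPM after NRG1, from 181, 186 and 423 counts in mock and 178, 61 and 185 in NRG1 libraries. The 2 groups did not overlap, by a margin of 24.2 against 23.7 CPM that rested on culture 1. There the log2 ratio was -0.03 with a 95% counting interval of -0.33 to 0.28, whereas it was -2.01 (-2.45 to -1.58) in culture 2 and -1.48 (-1.74 to -1.23) in culture 3. With all cultures the log2 fold change was -1.13 (SE 0.26, 95% interval -1.70 to -0.57, adjusted p = 0.0071 by edgeR). Without culture 1 it was -1.70 (adjusted p = 5.7e-12), while without culture 2 or 3 it was -0.80 and -0.91 and the call was lost (adjusted p = 0.038 and 0.035). The counting intervals leave out variation between cultures, and whether culture 1 responded differently was not tested. Culture 1 also held the fibroblast and mural markers given above, whose part in these values was not tested.

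Egr3, a factor of immune cells and muscle spindles that is induced like Egr1, showed no common direction. Its levels were 28.5, 93.8 and 108.6 CPM in mock cultures 1, 2 and 3 and 41.9, 69.3 and 105.3 CPM after NRG1, and the groups overlapped throughout. It was higher after NRG1 in culture 1, with a log2 ratio of 0.56 and a counting interval of 0.30 to 0.81, lower in culture 2, with -0.44 (-0.60 to -0.27), and was at -0.04 (-0.15 to 0.06) in culture 3. These within-culture statements cover counting error only. The fit gave a log2 fold change of 0.00 (SE 0.16, 95% interval -0.34 to 0.34, adjusted p = 0.99 by edgeR), which leaves a mean change of 1.26-fold upward or to 0.788 of mock within the interval. Without culture 1 it was -0.23 (95% interval -0.58 to 0.12, adjusted p = 0.41). Levels spanned a 3.81-fold range between the mock libraries, lowest in culture 1.

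Egr4, a member known mainly from neurons and the germ line, was not measurable at this depth. It had 0, 1 and 2 counts in mock cultures 1, 2 and 3 and 0 counts in each NRG1 library. All 6 values were under the floor of 3 counts, which corresponded to between 0.194 and 0.444 CPM, so no fold change is given.

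**Figure D3:**
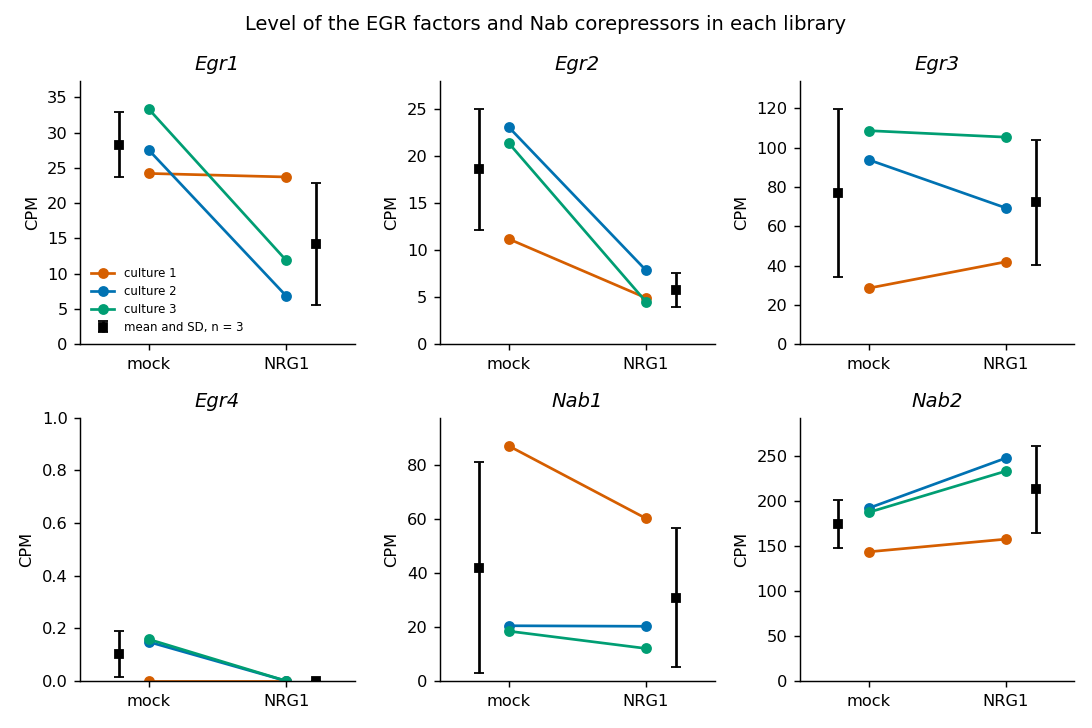
Level of the 6 members in CPM in each mock and NRG1 library, with 1 line for each culture and black squares for the mean and SD of the 3 libraries of a group. Egr2 is lower after NRG1 in all 3 cultures, Egr1 is lower in cultures 2 and 3 and goes from 24.2 to 23.7 CPM in culture 1, and culture 1 has the highest Nab1 and the lowest Egr3.

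The corepressors moved less than Egr2, and neither passed the test. Nab2, the corepressor that Egr1 can induce, was at 143.6, 192.2 and 187.5 CPM in mock cultures 1, 2 and 3 and at 157.7, 247.9 and 233.4 CPM after NRG1. It was higher after NRG1 in 3 of 3 cultures, with log2 ratios of 0.13 (0.01 to 0.26), 0.37 (0.27 to 0.47) and 0.32 (0.24 to 0.39), although the groups overlapped because mock cultures 2 and 3 were above NRG1 culture 1. The fitted log2 change was 0.27 (SE 0.12, 95% interval 0.02 to 0.53), with an unadjusted p of 0.036 and an adjusted p of 0.11 by edgeR. Without culture 1 it was 0.34 (adjusted p = 0.17).

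Nab1 was at 86.9, 20.4 and 18.4 CPM in mock cultures 1, 2 and 3 and at 60.1, 20.2 and 12.0 CPM after NRG1. The levels of culture 1 were far above the others in both groups, a 4.73-fold range between mock libraries and 5.01-fold between NRG1 libraries, in the culture that held the fibroblast markers, whose part in this was not tested. Log2 ratios were -0.53 (-0.71 to -0.36) in culture 1, -0.01 (-0.34 to 0.32) in culture 2 and -0.61 (-0.90 to -0.33) in culture 3. The fit gave -0.40 (SE 0.15, 95% interval -0.72 to -0.09, adjusted p = 0.062 by edgeR). Without culture 2, whose ratio was nearest to 0, the log2 fold change was -0.56 and passed (adjusted p = 0.0066), and without culture 1 it was -0.32 (adjusted p = 0.34).

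**Figure D4:**
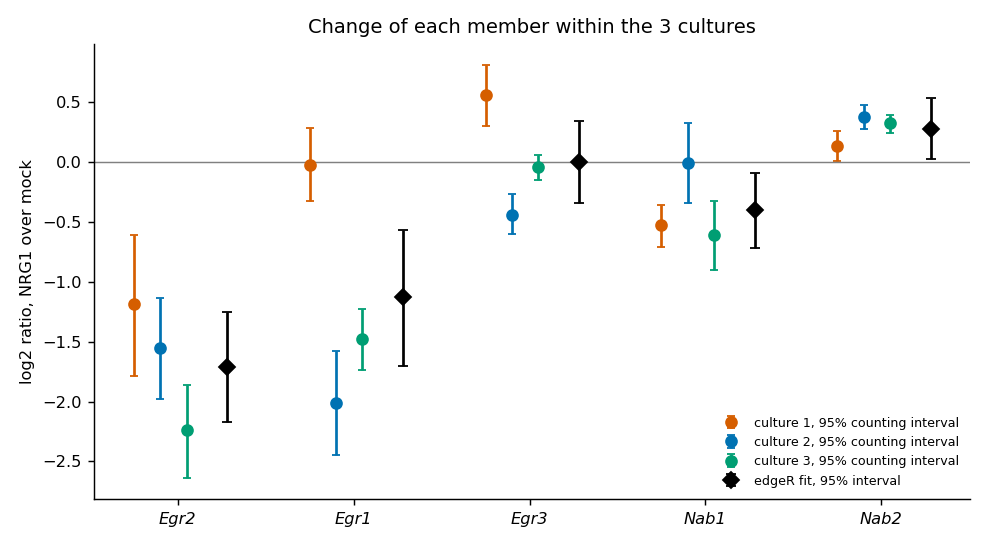
Log2 ratio of NRG1 over mock for the 5 tested members, with coloured circles for each culture and its 95% counting interval and black diamonds for the edgeR fit and its 95% interval. All 3 Egr2 ratios lie between -2.24 and -1.19, Egr1 splits into -0.03 in culture 1 and -2.01 and -1.48 in cultures 2 and 3, and all 3 Nab2 ratios are above 0.

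Since Nab proteins act on EGR factors in a complex, the ratios between their mRNA counts were followed within each library. These data hold no protein levels, so the ratios do not give the balance of the proteins. A change of such a ratio does not depend on gene length, although the ratio itself does. There were 12.8, 8.33 and 8.78 Nab2 counts for each Egr2 count in mock cultures 1, 2 and 3, and 32.0, 31.5 and 51.7 after NRG1. The 2 groups did not overlap, and the log2 ratio of Egr2 to Nab2 changed by -1.28, -1.90 and -2.53 (mean -1.90, SD 0.62, n = 3). For Egr2 to Nab1 the changes were -0.62, -1.51 and -1.60 (mean -1.24, SD 0.55), and for Nab2 to Nab1 they were 0.66, 0.38 and 0.92 (mean 0.66, SD 0.27). These 3 ratios moved the same way in every culture, and the exact two-sided sign-flip permutation test over 3 pairs gave its smallest possible p, 0.25, for each. They are not 3 separate results, since the ratio of Nab2 to Nab1 follows from the other 2, and both of those carry the Egr2 drop given above. Without culture 1 the mean changes were -2.21, -1.56 and 0.65. The ratio of Egr2 to Egr1 had no such common direction, with changes of -1.12, 0.44 and -0.74 (mean -0.47, SD 0.81, exact permutation p = 0.50, and a mean of -0.15 without culture 1). The 4 p-values cannot pass any adjustment.

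Most tested genes that Egr2 is known to activate fell with it after NRG1. Of 14 such myelin genes, 13 were tested, 10 fell (76.9%, against 5.51% of all genes tested), none rose, and the median log2 fold change was -1.19. Most of them are already known from these data to fall, so that their count is not independent evidence. Drp2, a dystrophin-related protein of the myelin sheath, changed most, by -2.40 (SE 0.35, adjusted p = 0.00028). Its mock levels were 4.54, 30.6 and 5.67 CPM and its NRG1 levels 1.73, 2.58 and 1.74 CPM, so culture 2 carried the largest part of the drop. Fa2h, which hydroxylates the fatty acids of myelin lipids, went from 17.0 ± 3.97 to 4.82 ± 2.49 CPM, and Mal, a raft protein of myelin, from 16.8 ± 10.1 to 4.98 ± 2.99 CPM (SD, n = 3). Log2 fold changes of the further genes that fell were -1.57 for Pmp22, -1.54 for Pllp, -1.20 for Ndrg1, -1.19 for Cldn19, -1.17 for Mag, -1.07 for Mbp and -1.01 for Prx. Among the 3 that were not called, Ugt8, the enzyme of galactolipid synthesis, was at -0.51 (adjusted p = 0.013) and Cnp at -0.32, and Gjb1, the connexin of myelin, was at -0.03, the highest of the list. Ncmap did not pass the filter. Without culture 1, 10 of the 13 fell again. In edgeR's test these adjusted p-values are over all genes.

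Genes that Egr2 and Nab repress together, or that are low when Egr2 is high, gave no call in either direction, with and without culture 1. Of all genes tested 11.8% were called with culture 1 and 12% without it, so a list this short can hold no call without standing apart. The 9 genes were Jun, Sox2, Id2, Id4, Rrad, Ngfr, Ncam1, Pou3f1 and Notch1, of which 8 were tested, and Rrad did not pass the filter. Of the 8, 3 had an unadjusted p under 0.05, as did 35.7% of all genes tested, and DESeq2 called none either. Their median log2 fold change was 0.05. Id4, an inhibitor of differentiation, was the highest at 0.47 (SE 0.16, adjusted p = 0.042 by edgeR), with 48.5, 76.8 and 134.7 CPM in mock and 71.2, 144.8 and 132.6 CPM in NRG1 samples. Id2, of the same family, was the lowest at -0.32 (adjusted p = 0.076), with 56.0 to 67.9 CPM in mock and 44.3 to 51.8 CPM in NRG1 samples. Jun, the factor opposed to Egr2 in Schwann cells, was at -0.15 (SE 0.12, 95% interval -0.40 to 0.11, adjusted p = 0.40), and Sox2 at 0.30 (adjusted p = 0.09).

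None of the 8 tested factors that act on the Egr2 gene was called changed in either direction by edgeR or DESeq2, and 3 had an unadjusted p under 0.05. Over all genes tested edgeR called 11.8%, and 35.7% had an unadjusted p under 0.05, so a list this short can hold no call without standing apart. Sox10, which drives Egr2 together with Pou3f1, was at 395.9, 1091.3 and 1174.8 CPM in mock cultures 1, 2 and 3 and at 477.3, 1062.8 and 1257.8 CPM after NRG1, which the fit put at 0.11 on the log2 scale (SE 0.13, adjusted p = 0.58 by edgeR). Pou3f1 was at -0.22 and Pou3f2 at -0.05. Yy1, an activator of Egr2, was the highest of the list at 0.39 (adjusted p = 0.031), and Nfatc4, which acts with Sox10 on the Egr2 gene, the lowest at -0.42 (adjusted p = 0.043). The median of the list was -0.03, the same as over all genes tested. Srf, the factor that binds the CArG box, was at -0.01 (SE 0.13), and of its ETS partners Elk1 was at -0.41 (adjusted p = 0.056), Elk3 at 0.36 (adjusted p = 0.045) and Elk4 at -0.10. None of these 4 was called by edgeR or DESeq2 (2 had an unadjusted p under 0.05), which the same shares over all genes limit likewise. Without culture 1 none of either list was called, against 12% of all genes, and Mkl1 and Mkl2 were not analysed here.

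Of the NuRD subunits, 10 of 13 were measured and tested, 2 rose (20%, against 6.31% of all genes tested) and none fell. Mbd3 was at 66.3, 87.0 and 106.3 CPM in mock cultures 1, 2 and 3 and at 110.3, 150.7 and 147.8 CPM after NRG1, or 0.66 higher on the log2 scale (SE 0.12, adjusted p = 0.0014 by edgeR). Gatad2a was higher by 0.53 (SE 0.12, adjusted p = 0.0047), and for both genes every NRG1 library was above every mock library. The lowest of the list was the histone-binding subunit Rbbp7 at -0.15 (adjusted p = 0.41). Without culture 1, Mbd3 alone was called. Chd3, Chd4, the subunit that Nab proteins bind, and Mta3 were not analysed here. The other cofactors and modifiers of EGR factors gave no call among 5 tested by edgeR or DESeq2, and 2 had an unadjusted p under 0.05. Over all genes tested the shares were 11.8% called by edgeR and 35.7% under 0.05, so 5 genes without a call do not stand apart. Their log2 fold changes went from -0.28 for Wwp2, a ubiquitin ligase of Egr2, to 0.47 for Hcfc1, a coactivator (adjusted p = 0.029 by edgeR). Ep300 was not analysed here. Without culture 1 none of the 5 was called.

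Of 8 reported Egr1 targets 7 were tested, 2 rose (28.6%, against 6.31% of all genes tested), none fell, and the median log2 fold change was 0.27. Tgfb1, a growth factor, rose from 109.8 ± 14.7 to 173.0 ± 30.4 CPM (SD, n = 3), or by 0.65 on the log2 scale (SE 0.12, adjusted p = 0.0019 by edgeR). Pdgfa, a platelet-derived growth factor chain, changed by 0.49 (SE 0.12, adjusted p = 0.0091). Pdgfb was the highest at 0.70 (adjusted p = 0.11) and Fn1, fibronectin, the lowest at -0.39 (adjusted p = 0.14). Fn1 was at 8384.7 CPM in mock culture 1 against 861.6 and 601.0 CPM in mock cultures 2 and 3. Without culture 1, Tgfb1 rose and Fn1 fell (-0.69, adjusted p = 0.0024), and Pdgfa was not called.

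Other genes induced through ERK went both ways after NRG1. Of 18 tested genes of that kind, 7 rose (38.9%, against 6.31% of all genes tested) and 2 fell (11.1%, against 5.51%), with a median log2 fold change of 0.40. Those that rose were Fosl1 (1.69), Etv5 (1.65), Dusp6 (1.23), Phlda1 (1.17), Dusp4 (1.15), Spry4 (1.15) and Spry2 (0.96), which are an AP-1 subunit, an ETS factor and, for the Dusp and Spry genes, feedback inhibitors of the pathway. Etv5 was at 45.6, 38.6 and 64.7 CPM in mock cultures 1, 2 and 3 and at 113.2, 158.1 and 197.5 CPM after NRG1, with no overlap. Spry4 had log2 ratios of 0.15, 2.22 and 1.5 in cultures 1, 2 and 3, and without culture 1 its log2 fold change was 1.81. Fos and Btg2 fell. Fos, the first AP-1 subunit to be induced, was at 55.2, 145.3 and 116.8 CPM in mock and at 19.2, 48.3 and 35.8 CPM in NRG1 samples, and its fitted log2 change was -1.61 (SE 0.12, adjusted p = 2.2e-06 by edgeR). Btg2, an antiproliferative gene, was at -1.63 (SE 0.31, adjusted p = 0.0019), with 14.8, 9.17 and 14.6 CPM in mock and 10.0, 2.47 and 2.39 CPM in NRG1 samples. As with Egr1, its smallest drop was in culture 1. Junb was at -0.13, Nr4a1 at -0.37 (adjusted p = 0.034) and Ier2 at 0.51 (adjusted p = 0.015). Arc did not pass the filter. Without culture 1, 8 rose, Etv4 being the added one (1.67), and the same 2 fell.

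**Figure D5:**
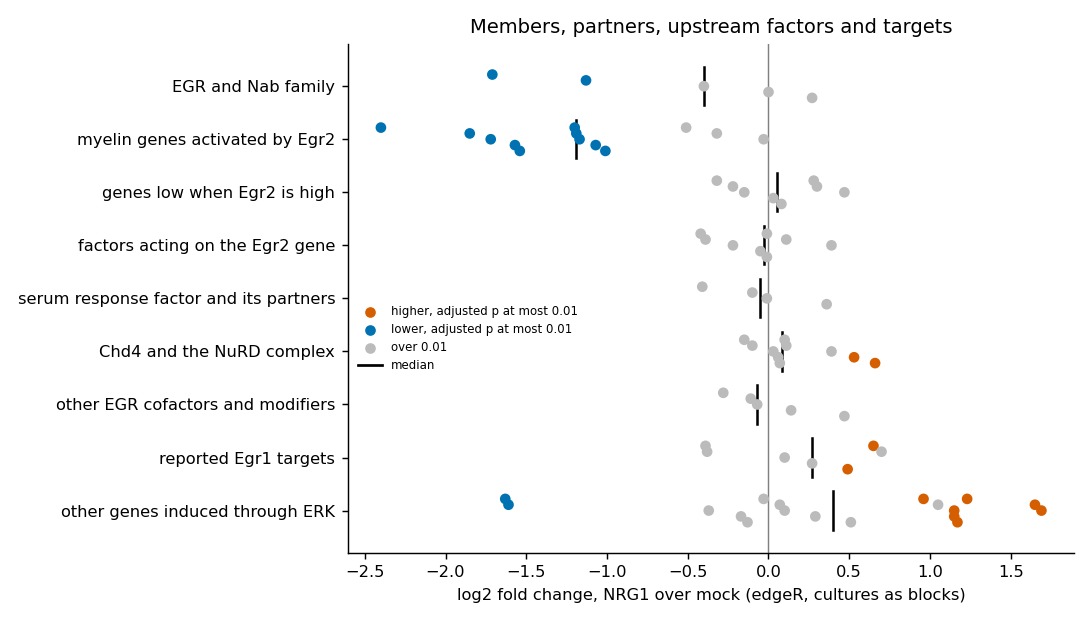
Log2 fold change of NRG1 over mock for each tested gene of the members and of 8 lists of related genes, coloured by whether the adjusted p of the edgeR fit was at most 0.01, with a black line at the median. The myelin genes all lie left of 0, with a median of -1.19, the upstream factors and repressed genes lie around 0 with no gene called, and the ERK-induced genes spread from -1.63 to 1.69.

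The genes whose profile over the 6 libraries was most like that of each member were found by Pearson's r on log2 CPM. For Egr2 they were Wdpcp (r = 0.993), Ccdc163 (0.991) and Fam107b (0.991), of which Fam107b fell (log2 fold change -1.01, adjusted p = 2e-04 by edgeR). For Egr1 they were Ppard (0.995), Mt1a (0.993) and Kctd1 (0.988). The closest to Egr3 were Ccdc130, Zfp219 and Git1, with r from 0.994 to 0.995, and the closest to Nab1 were Tsc22d3, Chst14 and Nadk2, with r from 0.996 to 0.998. Pphln1, Sec61a2 and Hdgf were closest to Nab2, with r from 0.995 to 0.998. These values describe 6 libraries from 3 cultures, 1 of which stood apart, and with 9740 genes to choose from the top values are high whatever the gene.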

How the data were processed

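RNA-seq was compared between 3 mock and 3 NRG1 samples, grouped by their titles. The authors mapped reads to rn5 with TopHat2 2.0.10, assigned them to RefSeq genes with htseq and deposited the raw counts. Whether strand was used is not given in the sources used here. The htseq summary lines, between 50.1% and 53% of each file's total, were left out. Genes were filtered with filterByExpr (minimum count 10), which left 9740, and tested with edgeR 4.0.16 in R 4.3.3 (TMM, quasi-likelihood, with the culture number as a block, after the paired design of the study, Benjamini-Hochberg adjustment over all 9740). CPM use TMM-scaled library sizes. Standard errors are the log2 fold change over the square root of F. Counting intervals within a culture are exact binomial (Clopper-Pearson, 95%) and, like the 3-count floor, cover counting error only. The ratios used a prior count of 2, as did the log2 CPM of the profiles.

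The numbers mark independent cell preparations. Deviations from group means correlated across genes with r of 0.91, 0.67 and 0.81 for equal numbers and -0.80 to 0.51 for unequal ones. Culture 1, which stood apart, sets most of this contrast. Between cultures 2 and 3 the values were 0.67 and 0.81 for equal numbers and 0.51 for unequal ones. The pairing of these 2 cultures therefore rests mainly on the paired design of the study. No 2 libraries agreed within sampling noise. Scripts were tested on simulated counts. Members and gene lists were chosen with earlier results of these data known. Some genes of the myelin and Schwann marker lists are not reported here and enter no count or sum of these lists. The genes named are the members, the called genes of each list with its highest and lowest, the markers, and the 3 genes most like each member, beside a few further list genes chosen after their values were seen. Alternatives were no block, DESeq2 1.42.0 with and without shrinkage, RLE, 2 other filters, a threshold of 0.05, a fold limit inside the test, another prior count and leaving out each culture.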

Additional observations from a re-analysis of the deposited data

How the results depend on the processing

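Egr2 and Egr1 kept their direction in every fit tried. With no replicate block neither passed, at -1.69 (adjusted p = 0.18) for Egr2 and -1.01 (0.39) for Egr1, and edgeR called 0 genes, 0 members and 0 in the myelin, NuRD, Egr1-target and ERK lists, while 1334 genes and 1 member had an unadjusted p under 0.05. A fold limit inside the test left 22 genes called, none of them a member (Egr2 -1.71, adjusted p = 0.071, and Egr1 -1.13, adjusted p = 1), 1 ERK gene and 0 in the myelin, NuRD and Egr1-target lists. A threshold of 0.05 gave 2260 genes, the same 2 members, 1 gene each of the repressed, cofactor and serum response factor lists, and 2 factors acting on Egr2. Without a low-count filter 1 repressed gene and 1 cofactor were called, and DESeq2 with the block, shrunken or not, called 1 Egr1 target.

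Leaving out each replicate moved Egr1 between -1.70 and -0.80, Egr2 between -1.90 and -1.37, Egr3 between -0.23 and 0.21, Nab1 between -0.56 and -0.28 and Nab2 between 0.23 and 0.34. It left from 661 (without replicate 3) to 1191 genes called, 1 or 2 members, 1 or 2 each of the Egr1 targets and NuRD subunits, and 0 or 1 gene of the repressed and cofactor lists. Egr3, at 0.00, changed sign within its error, to 0.03 and 0.02 in DESeq2 without and with shrinkage, 0.01 with RLE, 0.21 without replicate 2 and 0.05 without replicate 3. The replicate block rests on numbers that mark shared cell preparations. Depth limits Egr4, under 3 counts throughout, and Egr2, under 100 counts in 4 libraries. Causes were not tested.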
